A study of Mus musculus with 6 samples.

Results

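The heat shock chaperones of mouse macrophages were followed through 10 genes chosen by name: the transcription factor gene Hsf1, the stress-inducible chaperone genes Hspa1a, Hspa1b, Dnajb1, Hsph1 and Hsp90aa1, the constitutive cytosolic genes Hspa8 and Hsp90ab1, and the mitochondrial genes Hspd1 and Hspe1. All 10 were found by symbol among the 18019 genes of the deposited table. All 6 libraries came from RAW264.7, an established line of mouse macrophages, after induction with lipopolysaccharide (LPS), a cell wall component of Gram-negative bacteria that activates macrophages through TLR4. The control group (n = 3) had no further treatment, and the other group (n = 3) received TPPU, which blocks soluble epoxide hydrolase, an enzyme that degrades lipid epoxides. Doses, times and the number of separate cultures behind each group are not stated in the labels, so p-values measure only the spread between these libraries. All libraries carry the same batch label.

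Chaperones bind unfolded proteins and help them fold, hold or refold. In unstressed cells HSF1 is kept inactive in complexes with chaperones, and when unfolded proteins occupy those chaperones HSF1 forms trimers, binds heat shock elements and raises transcription of the inducible genes. HSPA8 and HSP90AB1 do the same work in unstressed cells, and in macrophages HSP90 clients include kinases of inflammatory signalling. The mitochondrial pair HSPD1 and HSPE1 forms the chaperonin of the mitochondrial matrix.

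Promoter sequences from RefSeq (GRCm38.p6, the assembly of mm10) were matched for 6 of the 10 genes: Hspa1a, Hspa1b, Dnajb1, Hsph1, Hspd1 and Hspe1. They were searched on both strands for neighbouring units of the heat shock element, the pairs GAANNTTC and TTCNNGAA and the runs of 3 units GAANNTTCNNGAA and TTCNNGAANNTTC, which contain the pairs. Each table entry spans 250 bases before and 50 after a start. Of 32851 entries, 15.1% held a pair and 0.603% a run of 3 units. The sequences are shown for the matches they hold. Hsf1, Hspa8, Hsp90aa1 and Hsp90ab1 had no entry, so inducible and constitutive cytosolic members were not compared by promoter. Capitals mark every base inside a match. Hspa1b (chr17:34959239-34959488, minus strand) and Hspa1a (chr17:34972157-34972406, minus strand) are printed over the 250 bases before the start. Hspe1 (chr1:55088053-55088082, plus strand) and Hsph1 (chr5:149636351-149636380, minus strand) are printed over 30 bases around the match.
Hspa1b: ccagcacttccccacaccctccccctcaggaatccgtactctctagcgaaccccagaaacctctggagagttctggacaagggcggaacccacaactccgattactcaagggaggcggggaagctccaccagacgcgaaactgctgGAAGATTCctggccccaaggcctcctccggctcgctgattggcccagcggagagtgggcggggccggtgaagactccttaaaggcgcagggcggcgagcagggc
Hspa1a: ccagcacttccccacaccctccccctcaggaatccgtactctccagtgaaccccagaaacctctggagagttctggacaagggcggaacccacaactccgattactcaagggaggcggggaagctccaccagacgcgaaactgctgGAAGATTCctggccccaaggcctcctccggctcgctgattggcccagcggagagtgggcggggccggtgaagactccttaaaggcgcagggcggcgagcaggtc
Hspe1: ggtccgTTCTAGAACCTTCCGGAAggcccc
Hsph1: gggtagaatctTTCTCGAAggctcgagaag

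The Hspa1a and Hspa1b promoters differed at 3 of 250 bases, written with the Hspa1b base first and the position counted back from the start: T207C, C204T and G2T. Both held a single exact pair, 104 to 97 bases before the start. The Hspe1 match ran over 2 overlapping runs of 3 units, 89 to 72 bases before its start. The same bases (chr1:55088059-55088076) lie 144 to 127 bases before 1 of the 2 listed starts of Hspd1, which is transcribed in the opposite direction. The entry of the other listed start (chr1:55088194-55088493) held no match, and the bases lie after that start, inside the annotated gene. The Hsph1 pair shown lies 54 to 47 bases before 1 of its 2 listed starts and 33 to 26 bases before the other. The annotated gene begins at 149636376 on the minus strand, so this pair is also inside it. A run of 3 units (chr5:149636288-149636300) lies after both listed starts of Hsph1. Neither listed promoter of Dnajb1 held an exact pair. Only exact units were searched, so an element with an altered unit would not be marked in any of these promoters. A match describes these letters alone, and the binding of HSF1 was not measured.

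Expression was measured as FPKM, fragments scaled to gene length and to the library's total, so levels can be compared roughly between genes. Such comparisons are approximate, since the sources do not say how reads shared between genes were counted. Depth, estimated from the steps between low values, was 17.9 to 23.0 M (mega) fragments per library. A floor of 3 fragments in a transcript of 1 kb was 0.131 to 0.168 FPKM, for counting error only. Control replicate 3 stood apart, with a correlation across genes of 0.958 to 0.977 with the others, and mitochondrially encoded genes made up 0.371% of its FPKM. That share was 0.914% in TPPU replicate 1 and 1.46% to 1.85% in the other 4 libraries. All 8 macrophage markers reached 1 FPKM in at least 3 libraries, and none of the 15 listed markers of fibroblasts, epithelium, endothelium, lymphocytes and chondrocytes did. The summed macrophage markers were 1572 to 1753 FPKM in control and 1658 to 1744 with TPPU, and Cd68 was the highest. Ephx2, the gene of the TPPU target, was at 0.447 to 0.865 FPKM in control and 0.42 to 2.56 with TPPU. The sample labels also cite the TPPU libraries under a name that refers to LIS1 knockdown, and its gene Pafah1b1 was at 6.52 to 14.2 and 10.7 to 14.2 FPKM.

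In LPS-treated cells the constitutive chaperones were the most abundant members. In control, Hsp90ab1 measured 781 ± 80.4 FPKM (SD, n = 3) and Hspa8 449 ± 154. Hspd1 at 168 ± 40.9 and Hsp90aa1 at 145 ± 65.5 came next and overlapped with each other. Hspe1 (57.6 ± 20.0), Hsph1 (54.3 ± 20.1), Hspa1b (43.8 ± 24.9) and Dnajb1 (42.7 ± 31.3) followed, with overlapping values. Hsf1 was at 8.81 ± 1.00 and Hspa1a at 0.334 ± 0.159. With TPPU the order of the highest 4 was Hsp90ab1, Hspa8, Hspd1 and Hsp90aa1 again, and Dnajb1 (17.7 ± 4.09) and Hspa1b (22.1 ± 5.91) lay below Hsph1 (36.6 ± 1.57) in each library.

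No member passed the test between TPPU and control. The stress-inducible members Hspa1b, Dnajb1 and Hsph1 had means 0.414 to 0.674 times those of control, with their highest values in control replicate 1. Hspa8 and Hsp90aa1 had means 0.736 and 0.866 times those of control. Hsp90ab1, Hspd1, Hspe1 and Hsf1 had means 1.02 to 1.11 times those of control. In bulk RNA, fewer expressing cells and less RNA per cell cannot be told apart. Of the 10 members, 9 passed the filter of at least 1 FPKM in at least 3 libraries and were tested with 9719 other genes. In limma with Benjamini-Hochberg adjustment 0 of these 9 were called in either direction, as were 0% of the 9728 genes tested, and adjusted p ranged from 0.627 to 0.946. With libraries weighted by quality, which gave control replicate 1 a weight of 3.84 and control replicate 3 one of 0.19, limma called 4 of the 9 lower: Hspa1b, Hspa8, Hsph1 and Dnajb1 (adjusted p from 0.0321 to 0.0403). Under the same weights limma called 80 of the 9728 genes lower and 89 higher. At an unadjusted p under 0.05 limma gave 0 of 9 members, against 4.19% of all genes higher and 3.7% lower. None of the 9 had groups that did not overlap, against 7.48% of all genes with TPPU higher and 7.88% with TPPU lower. All 4 tested stress-inducible members had a negative change in log2(FPKM + 1), as had 4437 of the 9728 genes tested. The median change was -0.66 over these 4 and 0.02 over all genes. Without control replicate 1 the median of these 4 was -0.32, and without control replicate 3 it was -1.0.

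**Figure D1:**
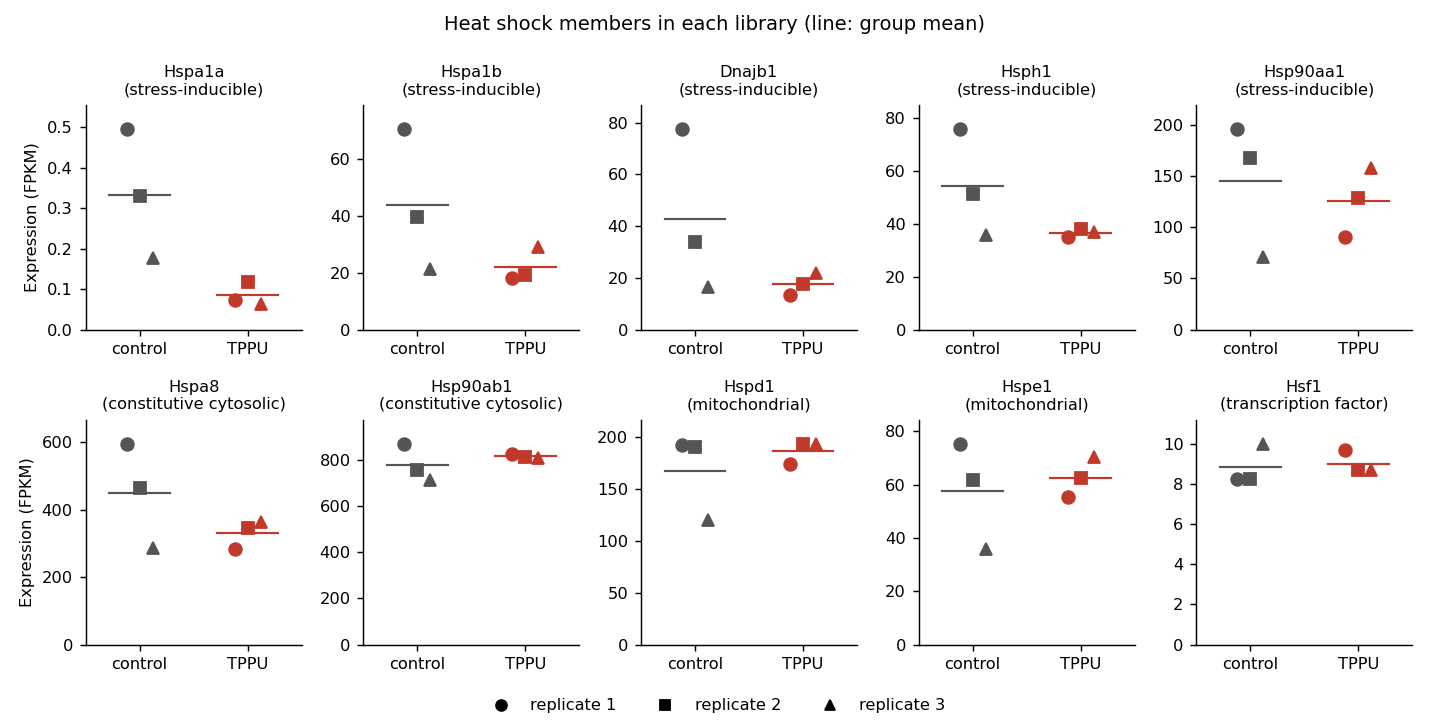
Expression in FPKM (vertical axes from 0, scaled to each gene) of the 10 members in the 3 control and 3 TPPU libraries, with the marker shape giving the replicate and the line the group mean. Control replicate 1 is highest for 8 of the 10 genes, and the 3 TPPU values of Hsph1 and Hsp90ab1 lie close together.

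Dnajb1 encodes an HSP40 J-protein that delivers substrates to HSP70 and starts its ATP cycle, and it is strongly induced by heat. Its level was 77.5, 34.1 and 16.7 FPKM in control replicates 1, 2 and 3, and 13.6, 17.8 and 21.7 in the TPPU replicates. The first 2 control values were above all TPPU values, and the third lay among them. The mean with TPPU was 0.414 of the control mean, and limma estimated a log2 change of -0.99 with SE 0.46 (95% interval -2.04 to 0.06, adjusted p = 0.627). The change was -0.44 without control replicate 1 and -1.51 without control replicate 3.

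Hspa1b encodes the inducible HSP70. Its values were 70.5, 39.7 and 21.3 FPKM in control and 18.2, 19.2 and 28.9 with TPPU, with the same pattern: control replicates 1 and 2 above every TPPU library and control replicate 3 among them. The mean with TPPU was 0.505 of control (log2 change -0.83, SE 0.37, limma adjusted p = 0.627, 95% interval -1.68 to 0.03). Without control replicate 1 the change was -0.41, and without control replicate 3 it was -1.25.

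Hspa1a, the neighbouring copy of Hspa1b on chromosome 17 (34969190 to 34972156, with Hspa1b at 34956436 to 34959238, mm10), was the scarcest member. Its lowest libraries were near the floor of 3 fragments. The control libraries held 0.495, 0.329 and 0.1765 FPKM and the TPPU libraries 0.074, 0.118 and 0.0635, and the highest TPPU library was below the lowest control. The exact permutation test gave p = 0.1 (two-sided), the smallest that 3 libraries against 3 can give. At the estimated depths these are about 26, 22 and 10 fragments in control and 4, 8 and 4 with TPPU. The exact 95% Poisson intervals, which cover counting error alone, were 17.0 to 38.1 fragments for the highest library and 1.09 to 10.2 for the lowest. The FPKM of Hspa1b was 121 to 142 times that of Hspa1a in control and 162 to 455 times with TPPU. The Hspa1a transcript is 2967 bases long, and 47.1% of its windows of 100 bases are also in the Hspa1b transcript, letter for letter. The sources do not say how reads shared by both copies were counted, so the split between the copies is uncertain.

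Hsph1 encodes HSP110, which exchanges nucleotides on HSP70 and helps it take proteins out of aggregates. The control libraries stood at 75.8, 51.3 and 35.9 FPKM, the TPPU libraries at 34.9, 38.0 and 37.0. The TPPU values spanned 1.09 times from lowest to highest and the control values 2.11 times, and control replicate 3 lay among the TPPU libraries. The log2 change was -0.49 (SE 0.23, limma adjusted p = 0.627), or -0.22 without control replicate 1 and -0.75 without control replicate 3.

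Hsp90aa1 encodes the inducible cytosolic HSP90. Control levels were 196, 168 and 70.9 FPKM and TPPU levels 90.4, 128 and 157, so that the TPPU values all lay inside the control range. Its lowest values were in control replicate 3 and TPPU replicate 1, where mitochondrial transcripts were also scarcest. Hspa8, Dnajb1, Hsph1, Hspd1 and Hspe1 had their lowest values in these libraries too, and the part of the mitochondrial share was not tested for any of them. The log2 change was -0.12 (SE 0.36, limma adjusted p = 0.937). It was 0.16 without control replicate 1 and -0.56 without control replicate 3, so its direction depended on single libraries.

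Among the constitutive members, Hspa8, the HSP70 of unstressed cells, measured 595, 466 and 288 FPKM in control and 283, 344 and 364 with TPPU. Control replicates 1 and 2 were above all TPPU libraries here too. The mean with TPPU was 0.736 of control (log2 change -0.39, SE 0.24, limma adjusted p = 0.695, 95% interval -0.93 to 0.15), and the change was -0.15 without control replicate 1 and -0.68 without control replicate 3. Hsp90ab1, the constitutive HSP90, measured 870.4, 759 and 714 FPKM in control and 828, 815 and 809 with TPPU. Its TPPU values lay inside the control range, and the log2 change was 0.07 (SE 0.09, 95% interval -0.13 to 0.27, limma adjusted p = 0.847).

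The mitochondrial chaperonin genes Hspd1 (HSP60) and Hspe1 (HSP10, its lid) sit head to head on chromosome 1 (55077835 to 55088243 and 55088132 to 55091307, mm10). Hspd1 stood at 192, 191 and 121 FPKM in the controls and at 174, 193 and 193 under TPPU. Hspe1 stood at 75.2, 61.7 and 35.9 FPKM in the controls and at 55.3, 62.4 and 70.3 under TPPU. For both genes the lowest library was control replicate 3 and the next was TPPU replicate 1. The log2 changes were 0.19 (SE 0.17) and 0.18 (SE 0.24), with limma adjusted p of 0.785 and 0.857, and turned to -0.04 and -0.13 without control replicate 3. The annotation lists 5 pseudogenes named after Hspd1 and 6 after Hspe1, so these levels also depend on how shared reads were counted.

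Hsf1, the regulator, varied little, at 8.23, 8.25 and 9.97 FPKM in control and 9.67, 8.69 and 8.665 with TPPU. Its highest values were in control replicate 3 and TPPU replicate 1, where Hspa8, Dnajb1, Hsph1, Hsp90aa1, Hspd1 and Hspe1 were lowest. Control replicate 3 held the highest value of 34.8% of all genes tested and the lowest of 27.7%, and TPPU replicate 1 15.5% and 9.70%. Deviations of genes from their means correlated with transcript GC content at 0.61 and 0.25 in these libraries (Spearman). The others had -0.18 to -0.45. GC content was 57.3% for Hsf1 and 47.0% to 52.4% for those genes. It was higher than that of Hsf1 for Hspa1b (58.1%) and Hspa1a (58.9%). Yet Hspa1b was lowest in TPPU replicate 1 (18.2 FPKM) and stood at 21.3 FPKM in control replicate 3. Hspa1a was lowest in TPPU replicate 3. The part of GC content in this pattern was not tested. The log2 change of Hsf1 was 0.03 (SE 0.11, limma adjusted p = 0.946, 95% interval -0.23 to 0.29). HSF1 is regulated largely at the protein level, which was not measured.

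**Figure D2:**
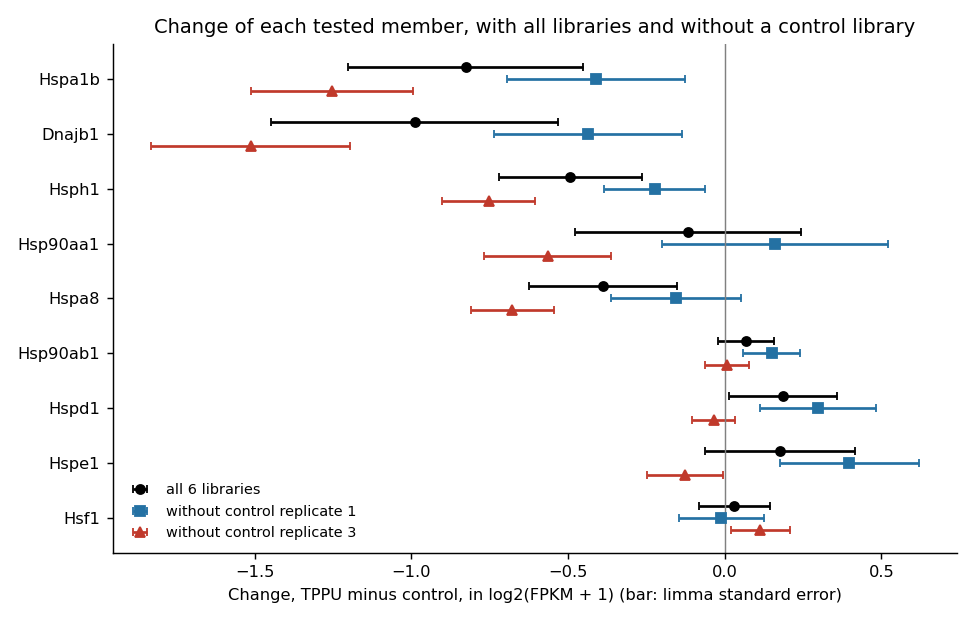
Change in log2(FPKM + 1), TPPU minus control, of the 9 tested members (horizontal axis; bars are limma standard errors) with all 6 libraries, without control replicate 1 and without control replicate 3. Dnajb1 stands at -0.99 with all libraries, -0.44 without control replicate 1 and -1.51 without control replicate 3, Hspd1 and Hspe1 change sign without control replicate 3, and Hsp90aa1 and Hsf1 without control replicate 1.

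The control group was more spread than the TPPU group for every member, a difference that was not tested. The median over all genes was also larger in control, and the share of genes with that direction was not counted. The SD of log2(FPKM + 1) for Dnajb1 was 1.08 in control, larger than that of 99.7% of the genes tested, and 0.32 with TPPU. It was 0.84 and 0.35 for Hspa1b, and 0.53 and 0.06 for Hsph1. Hsp90ab1 had 0.15 and 0.02, and the medians over all genes were 0.17 in control and 0.11 with TPPU. Control replicate 1 held the highest value of 5 of 5 stress-inducible members and of 8 of all 10, against 9.34% of the 9728 genes tested. This count was chosen after the values were seen.

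Inducible and constitutive chaperones were compared as ratios of FPKM within each library, as a description with no test. Hspa1b was 11.9%, 8.54% and 7.40% of Hspa8 in control replicates 1, 2 and 3, and 6.44%, 5.57% and 7.94% with TPPU. Dnajb1 was 13.0%, 7.32% and 5.80% of Hspa8 in control and 4.79%, 5.17% and 5.96% with TPPU. For both ratios control replicate 3 lay among the TPPU libraries and control replicate 1 was highest. The differences in mean log2 ratio, TPPU minus control, were -0.46 and -0.63. Without that library the differences were -0.27 and -0.30.

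Hsph1 was 10.1% to 12.7% of Hspa8 over all 6 libraries. The difference in mean log2 ratio was -0.11, from -0.19 without TPPU replicate 1 to -0.05 without TPPU replicate 3. Hsp90aa1 was 22.5%, 22.1% and 9.93% of Hsp90ab1 in control and 10.9%, 15.8% and 19.5% with TPPU. That ratio was lowest in control replicate 3 and TPPU replicate 1, and the groups overlapped, with a difference of -0.19. That difference became -0.58 when control replicate 3 was left out and 0.04 when TPPU replicate 1 was, so its direction depended on single libraries. Hspa1a was 0.0614% to 0.0833% of Hspa8 in control and 0.0174% to 0.0343% with TPPU, the 1 ratio in which the groups did not overlap, from the few fragments given above. In the mitochondrial chaperonin Hspe1 was at 29.7% to 39.2% of Hspd1, with a difference of -0.01.

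**Figure D3:**
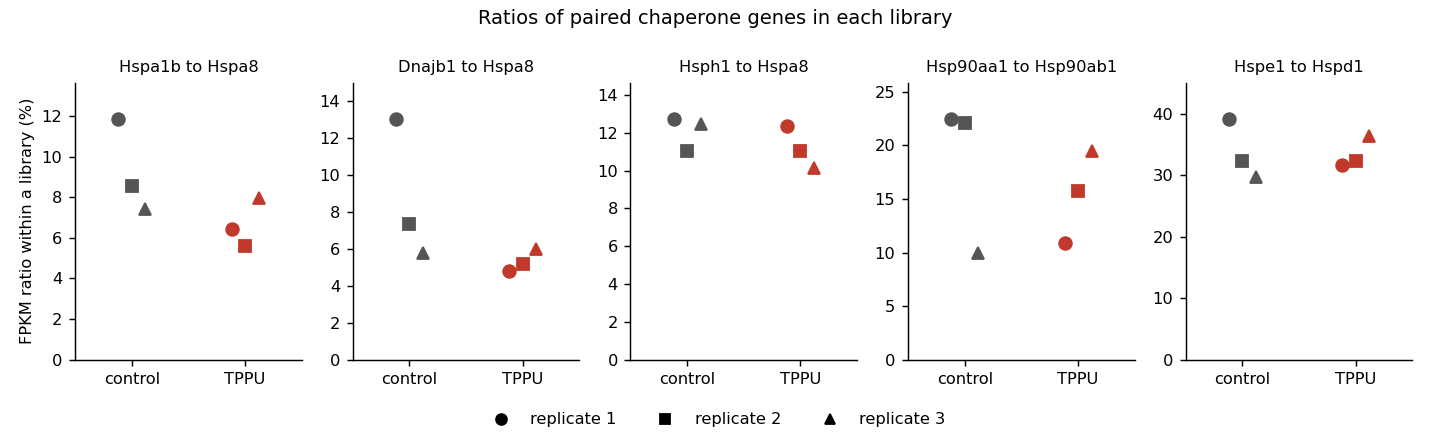
Ratio of FPKM within a library, in percent (vertical axes from 0), for 5 pairs of chaperone genes in the 3 control and 3 TPPU libraries, with the marker shape giving the replicate. Dnajb1 reaches 13.0% of Hspa8 in control replicate 1 and lies between 4.79% and 7.32% in the other 5 libraries, while Hsph1 stays between 10.1% and 12.7%.

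The wider chaperone network was read from a list of 69 genes, of which 67 were in the table and 58 were tested. Over these 58 genes limma called 0 higher and 0 lower after adjustment, with the lowest adjusted p at 0.411. Of the 58, 40 had a positive and 18 a negative change, with a median of 0.08 against 0.02 over all genes, or 0.03 without control replicate 3. Of all 9728 genes tested, 5291 had a positive and 4437 a negative change. With quality weights, or with a trend on GC content removed, 35 of the 58 were positive and 23 negative. At an unadjusted p under 0.05, 5 were higher and 1 was lower, or 8.62% and 1.72% of the list, against the 4.19% and 3.7% of all genes. Groups did not overlap for 6 of the 58 with TPPU higher and for 2 with TPPU lower. Over all genes tested those shares were 7.48% and 7.88%, so a lack of overlap does not set the genes named below apart.

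Bag3, a nucleotide exchange factor of HSP70 that directs proteins to autophagy and is itself an HSF1 target, was the 1 gene with a lower mean at that level. Control libraries had 42.5, 25.5 and 23.8 FPKM and TPPU libraries 17.4, 14.7 and 18.0, and the groups did not overlap. Its log2 change was -0.80 (SE 0.21, limma adjusted p = 0.411), or -0.54 without control replicate 1. Bag1, another exchange factor, had the highest change of the HSP70 partners, 0.43 (unadjusted p = 0.047), from 58.0 ± 14.6 to 77.0 ± 7.89 FPKM. Its change was 0.21 without control replicate 3, where Bag1 was lowest, at 41.3 FPKM.

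Of 13 tested J-protein genes, 6 had positive and 7 negative changes. Dnajc9, a histone chaperone as well as a J-protein, had the highest, from 2.67 ± 0.99 to 4.77 ± 0.64 FPKM with no overlap between groups (log2 change 0.68, SE 0.20, limma adjusted p = 0.509). Dnaja1, an HSP40 of the cytosol, went from 9.51 ± 4.49 to 7.15 ± 1.47 FPKM (log2 change -0.27, SE 0.33). Dnaja1 was at 4.39 FPKM in control replicate 3 and 11.4 to 12.7 in the other controls, and its log2 change was -0.695 without control replicate 3 and -0.02 without control replicate 1.

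Of 16 genes of HSP90 co-chaperones and relatives, 10 had positive and 6 negative changes. Fkbp4, an HSP90 co-chaperone of steroid receptors, measured 50.4, 46.7 and 48.8 FPKM in control and 60.6, 56.0 and 58.6 with TPPU, which did not overlap (log2 change 0.26, SE 0.08, limma adjusted p = 0.558). Ppid, a cyclophilin that binds HSP90, had a log2 change of 0.28, which was 0.04 without control replicate 3. Chordc1, another gene of this class, had one of -0.11.

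All 8 genes of the cytosolic chaperonin TRiC, which folds actin and tubulin, had positive changes, against 5291 of all 9728 genes tested. Their median was 0.20. The median was 0.04 without control replicate 3, and 0.14 with a trend on GC content removed. Cct2 measured 308, 300.4 and 274 FPKM in control and 334, 336 and 335 with TPPU, with no overlap (log2 change 0.19, SE 0.08, limma adjusted p = 0.615). Cct4 had the highest change, 0.51 (SE 0.41), and was at 26.6 FPKM in control replicate 3 against 79.8 and 85.8 in the other controls. Cct5 had the lowest, 0.02.

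Genes listed as small heat shock proteins were scarce: of 7 genes 6 were in the table and 2 reached the filter, Hspb6 (2.37 ± 0.88 and 2.93 ± 0.34 FPKM) and Hspb11 (1.82 ± 0.59 and 1.88 ± 0.66). Hspb11 was counted for its name, and its protein family was not checked. Of the regulators, Hikeshi, which carries HSP70 into the nucleus, measured 3.73 ± 0.25 in control and 4.72 ± 0.35 FPKM with TPPU with no overlap (log2 change 0.28, SE 0.11, limma adjusted p = 0.609). Hsbp1, which binds HSF1, was at 35.3 ± 2.89 and 40.4 ± 2.56 FPKM. Cacybp and Clpb, of the remaining genes, had changes of 0.05 and 0.04.

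**Figure D4:**
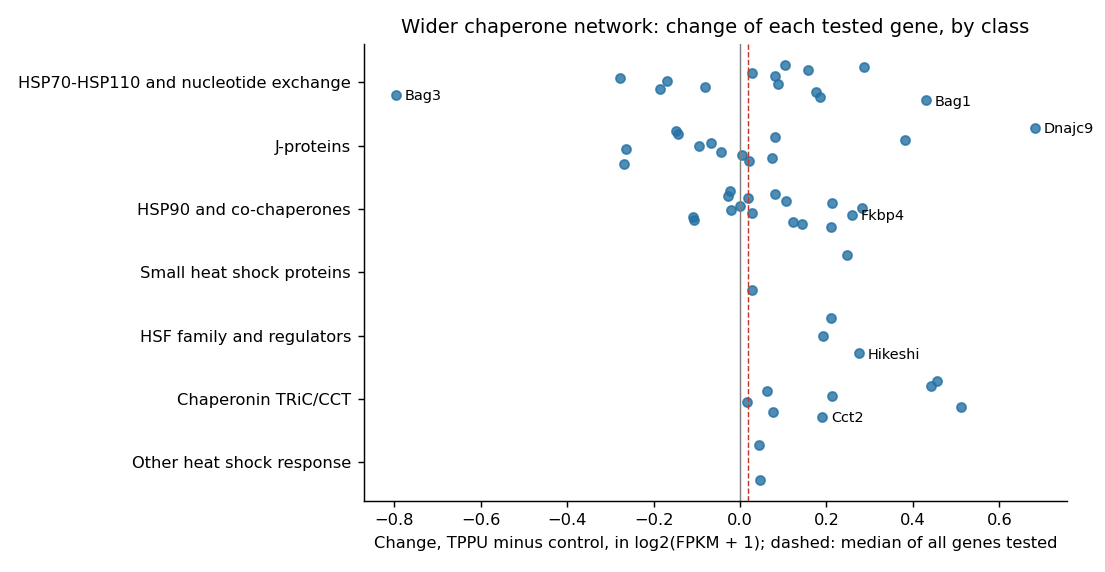
Change in log2(FPKM + 1), TPPU minus control, of the 58 tested genes of the wider chaperone list (horizontal axis), 1 row per class, with genes at an unadjusted p under 0.05 named and the dashed line at the median of all genes tested (0.02). Bag3 lies at -0.80, apart from the other partners of HSP70, and all 8 TRiC genes lie above 0.

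The genes whose log2(FPKM + 1) followed 2 of the members most closely were looked up among the tested genes outside the list, as a description. For Hspa1a these were Glrp1 (Pearson's r = 0.97), Atf2 (0.97) and Ppm1a (0.97), and for Hspa8 they were Prkx (0.99), Pafah1b2 (0.98) and Ube2d2a (0.97), each over the same 6 libraries. With 6 libraries that differ in depth and composition, 40 and 66 genes had an r above 0.9. Atf2 was at 10.3 FPKM in control replicate 1 and 7.78 to 9.48 in the other 5 libraries, and Prkx at 17.2 and 12.8 to 15.8.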

How the data were processed

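Poly(A) RNA of 6 libraries was sequenced after dUTP strand marking, per the labels' protocols. The authors deposited FPKM for 18019 gene symbols, 1 column per library. The submitters' processing notes name mm10 as the build, and no source used here names the aligner, counter, annotation or filter. Columns were matched by library name. The 9728 genes that reached 1 FPKM in 3 or more libraries (8291 did not) were compared on log2(FPKM + 1), which understates changes of low genes. limma 3.58.1 in R 4.3.3 fitted group alone with a variance trend, two-sided, and adjusted by Benjamini-Hochberg at 0.05. Hspa1a, below that level, had an exact permutation test. Depth is the number of fragments that turns low FPKM of genes with 1 GENCODE M21 transcript into whole multiples (93% to 94.2% within 0.1 of whole, 20% by chance). Named genes are the members, each class's extremes and genes at an unadjusted p under 0.05 in the wider list, and the 3 genes most like Hspa1a and Hspa8. Members and lists were chosen with earlier results of these data known. The limma step was tested on simulated data with independent noise for each gene. The simulation held no effect shared across a library, so it did not cover differences such as those of control replicate 3.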

Additional observations from a re-analysis of the deposited data

How the results depend on the processing

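Under 19 other settings the members' calls stayed at 0, except with sample quality weights, which gave 4 lower members, 1 higher and 1 lower gene of the wider list (Dnajc9 and Bag3), and 89 higher and 80 lower genes in all. Removal of a loess trend on GC content called 1 higher and 7 lower genes. Leaving out single libraries gave 0 to 5 higher and 0 to 1 lower, the 5 and the 1 without TPPU replicate 1. Over 118 values of members outside these omissions, 111 kept direction and side of the threshold, 4 crossed it (the quality weights) and 3 reversed. Quality weights turned Hsp90ab1 to -0.0495, Hspe1 to -0.16, Cacybp to -0.0863, Hspb6 to -0.0752 and Hspb11 to -0.0417, and quantile normalization put Hsf1 at -0.00 and Hspb11 at -0.0141. The GC trend turned Cacybp to -0.0572 and Hspb11 to -0.0839, also with the replicate block added, and the length trend turned Cct5 to -0.0171, Cacybp to -0.0088 and Hspb11 to -0.0281. Omitting single libraries moved Hsf1 between -0.0157 and 0.114, Hsp90aa1 between -0.56 and 0.16, Hspd1 between -0.0353 and 0.298, Hspe1 between -0.13 and 0.40, Cct4 between -0.0232 and 0.804, Cct5 between -0.038 and 0.0754, and Hspb11 between -0.16 and 0.23. The cause was not tested. The labels state no pairing of same-numbered libraries. Their deviations from the group means correlated at -0.30, 0.15 and -0.40, and control replicate 3 with TPPU replicate 1 at 0.51. With 3 libraries per group these deviations constrain one another, so they cannot decide whether cultures were shared. With the replicate block limma called 0 genes, the lowest adjusted p of a member being 0.898. Depth limits Hspa1a, at 4 to 26 estimated fragments.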
